A study of Mus musculus with 168 samples.

Results

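The members described here are 5 microRNA genes of inflammation and immune cells, Mir21a, Mir146, Mir146b, Mir150 and Mir511, in the cortex of Huntingtin (Htt) CAG knock-in mice. They were chosen by name: a row of the deposited table of cortex microRNA counts, which has 1626 rows of Ensembl transcripts, was a member when the GENCODE annotation of GRCm38 gave its transcript one of these names. All 5 names had a row, among 638 rows named as a microRNA gene. The study asked which microRNAs of the brain respond to the length of the Htt CAG repeat, the mutation behind Huntington's disease. Small RNA of the cortex was sequenced in 168 mice of strain C57BL/6, 8 (4 female and 4 male) for each of 7 genotypes at 2, 6 and 10 months of age.

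All knock-in mice were heterozygous, with 1 endogenous Htt allele and 1 engineered allele whose human HTT exon carries a CAG repeat of the line's length. The Q20, Q80, Q92, Q111, Q140 and Q175 genotypes are named by that repeat length. Wild-type (WT) mice, littermates of the Q20 line with 7 repeats, and Q20 mice served as controls. Each line was bred from HET males and C57BL/6J dams, and Q175 arose from a spontaneous expansion within the Q140 model, so the genotypes are separate lines as well as separate repeat lengths. The methods list no WT cortex at 6 months. The 8 libraries labelled so are shown apart throughout, and at 6 months Q20 mice alone were the controls.

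A microRNA is cut from a hairpin precursor, and its seed, bases 2 to 8 of the mature strand, pairs with target messenger RNAs and lowers their output. In microglia and other myeloid cells, activation through the transcription factor NF-kB raises the miR-146 family, which represses the signalling adaptors Irak1 and Traf6 and so limits the response, while miR-21, induced by STAT3 and AP-1 in reactive glia and many stressed cells, represses Pdcd4. miR-150 is abundant in mature lymphocytes, where it represses Myb, and Mir511 lies within Mrc1, the mannose receptor gene of macrophages of the brain's borders. None of these genes is used by 1 cell type alone, and in bulk cortex fewer cells of a type and less RNA per cell cannot be told apart.

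The mature strands of the members, from RefSeq on GRCm38.p6, follow with the seed in capitals. The seeds bear on which members could act on the same targets, and the whole strands on how reads can be told apart.
mmu-miR-21a-5p: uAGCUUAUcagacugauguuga
mmu-miR-21a-3p: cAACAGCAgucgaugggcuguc
mmu-miR-146a-5p: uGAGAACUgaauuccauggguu
mmu-miR-146b-5p: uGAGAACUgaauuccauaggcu
mmu-miR-146a-3p: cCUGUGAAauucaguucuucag
mmu-miR-146b-3p: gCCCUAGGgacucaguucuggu
mmu-miR-150-3p: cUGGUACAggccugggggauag
mmu-miR-511-3p: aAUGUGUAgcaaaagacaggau

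The 5p strands of miR-146a and miR-146b have the same seed, GAGAACU, and 20 of 22 bases in common. Their differences are G18A and U21C, counted from 1 at the 5′ end with the base of miR-146a first. The other seeds occur once among the members. The opposite strands, miR-150-5p and miR-511-5p, are named only.

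Mir21a has 2 mouse relatives, shown because a read of miR-21a could be ascribed to them.
mmu-miR-21c: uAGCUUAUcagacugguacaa
mmu-miR-21b: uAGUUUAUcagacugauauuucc

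The first shares the seed AGCUUAU and 16 of 21 compared bases with miR-21a-5p, and the second 18 of 22 bases but not the seed, where C4U separates them. Neither gene has a row in the table, and every Mir21a count was a whole number.

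On GRCm38, Mir21a (ENSMUST00000083521) lies on the minus strand at chr11:86584067-86584158 within an exon of Vmp1. Mir146 (ENSMUST00000083667), the gene of miR-146a, is on the same chromosome and strand at chr11:43374397-43374461 and overlaps no other gene. Mir146b (ENSMUST00000093619) lies on the plus strand at chr19:46342762-46342870 in an intron of Mfsd13a. Mir150 (ENSMUST00000083561), plus strand, chr7:45121757-45121821, overlaps no other gene. Mir511 (ENSMUST00000104704) is on the plus strand at chr2:14261003-14261081 in an intron of Mrc1.

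A library held 2041741 to 11646287 counts, with a median of 4810487, and the microRNA rows held 97.1% of all counts. Per library the median count was 9818 for Mir21a, 8215.5 for Mir150, 2573 for Mir146b, 1221 for Mir146 and 5 for Mir511, whose counts ran from 0 to 14 with 1 library at 0. Levels below are CPM, each library's counts scaled to a common total, after TMM normalization over all libraries. The median level over all libraries was 2015 CPM for Mir21a, 1604 for Mir150, 517 for Mir146b, 244 for Mir146 and 1.05 for Mir511. Divided by hairpin length, it was 2467 CPM per 100 bases for Mir150 (rank 56 of 567 microRNA genes), 2190 for Mir21a (rank 61), 475 for Mir146b (rank 122), 376 for Mir146 (rank 133) and 1.33 for Mir511 (rank 352). Counts of mature strands need not grow with hairpin length, so these ranks depend on that choice. The order of the first pair depends on age and on the division by length: per 100 bases Mir150 was at 2483, 1043 and 3258 and Mir21a at 1899, 2177 and 2594 at 2, 6 (without WT) and 10 months, whereas in CPM, not divided by length, the median of Mir21a was the higher at each age. Mir511 was thus counted in single reads, and its values are mostly counting error. The counts of Mir146 and Mir146b were fractional in 150 of 168 libraries while their sum was whole in 168 of 168 (decimal tolerances 0.001 and 0.01), as when reads that match both loci are divided. Mir146 held 25.6% to 40.5% of that sum (median 31.4%), so the division between this pair is uncertain and the sum was tested as well.

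The label cortex was checked against microRNAs of other sources. The neuronal list (11 of 12 with a row, Mir124a, Mir128, Mir9, Mir138, Mir132 and Mir212 genes) summed to between 89203 and 161563 CPM in every library, and Mir122, the liver microRNA, to at most 51.0 CPM. The leukocyte list (3 of 4 with a row: Mir142b, Mir155 and Mir223, none at 0 in any library) summed to group medians of 356 to 388 CPM at 2 months, 296 to 328 at 6 months without WT and 390 to 446 at 10 months. This sum is almost all Mir142b (median 365 CPM, against 10.4 for Mir223 and 5.79 for Mir155), which lies on the strand opposite Mir142. The libraries are described as strand-specific, so it is uncertain whether its counts come from the leukocyte microRNA miR-142, and the sum is a weak marker. For 2 libraries the labelled sex differs from that of the cage mates, and the latter was used.

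**Figure D1:**
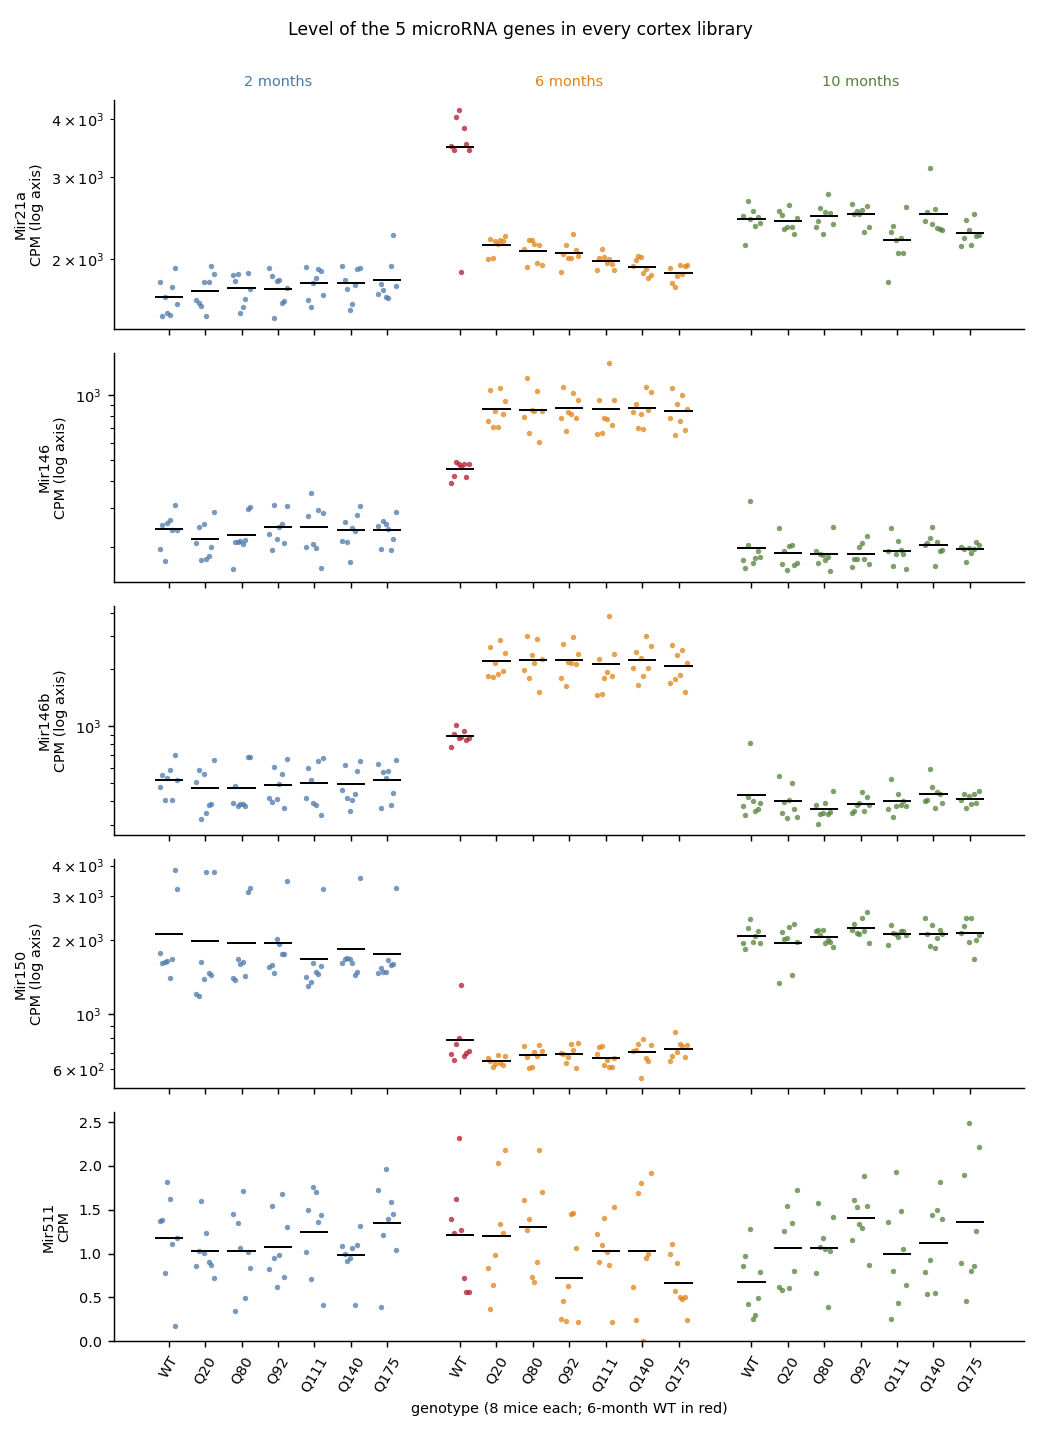
Level (CPM; log axis except for Mir511) of the 5 members in each of 168 cortex libraries, by genotype and age, with a bar at each group mean (8 mice each) and the 6-month WT libraries in red. Mir146 and Mir146b were high in the 6-month libraries and Mir150 low, and the 6-month WT libraries stood apart from the other 6-month groups in Mir21a, Mir146 and Mir146b.

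Mir21a, the member most often linked to reactive glia, was lower with longer CAG repeats at 6 months. In Q20 mice its level ran from 1998 to 2239 CPM with a median of 2187 (mean 2149 ± 90.7, SD, n = 8). In Q80 mice it ran from 1926 to 2202 (median 2123) and in Q92 mice from 1879 to 2260 (median 2037). Q111 mice held 1895 to 2102 (median 1981), Q140 mice 1818 to 2030 (median 1921) and Q175 mice 1740 to 1945 (median 1887, mean 1869 ± 78.7).

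The order of the 6 means followed the repeat length without exception, although no 2 neighbours in that order differed by more than the larger of their SDs. All 8 Q175 mice were below the lowest Q20 mouse, as were 6 of 8 Q140, 5 of 8 Q111, 1 of 8 Q92 and 3 of 8 Q80 mice. The share of all genes without overlap between Q175 and Q20 was not counted. The mean level differed from that of Q20 by -13.0% in Q175, -10.3% in Q140 and -7.88% in Q111 mice.

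With CAG length as a numeric variable at 6 months, Mir21a fell by 0.15 on the log2 scale per 100 CAG (SE 0.02, edgeR quasi-likelihood test with Benjamini-Hochberg adjustment over 500 microRNA genes, adjusted p = 4.27e-05). It had the smallest p of the 500 and was the 1 microRNA called lower (0.2% of those tested), beside 12 called higher. With RLE in place of TMM scaling 10 of 15 calls were higher, and with library size alone 16 of 20. The call of Mir21a held in all 16 alternatives run. At this age 2.6% of all genes were called in either direction, and 1 of the 5 members.

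In single genotypes against Q20 at 6 months, Mir21a fell by 0.23 in Q175 (SE 0.04, adjusted p = 0.0092), where 1 of 5 members and 1.1% of all genes were called (0.662% called lower). This call held in 12 of 14 alternatives (adjusted p from 3.96e-06 to 0.164) and was lost when library size alone set the scale (-0.18, adjusted p = 0.0786) and when the 6-month WT libraries joined the controls. In Q140 the coefficient was -0.17 (SE 0.04, adjusted p = 0.128) and in Q111 -0.20 (SE 0.05, adjusted p = 0.213), neither called by edgeR, and DESeq2's Wald test called both. In Q92 and Q80 it was -0.06 and -0.05. The share of all genes called was 0.225% for Q92 and 0% for Q80, Q111 and Q140, with 0 of 5 members called by edgeR in each, while 2, 0, 2 and 1 members had an unadjusted p under 0.05 in Q92, Q80, Q111 and Q140, and DESeq2 called 0, 0, 1 and 1.

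At 6 months genotype, lane (the L number in the library name, read here as the lane) and library code are entangled. The code is V in 11 libraries (2 Q80, 4 Q111, 2 Q140 and 3 Q175) and LB in the other 37. Every Q20 library is LB, so with code as a covariate the coefficients against Q20 at this age rest on LB libraries alone. These are 6 Q80, 8 Q92, 4 Q111, 6 Q140 and 5 Q175 libraries. In Q111 they are the 4 females, and its 4 V libraries are the males. The levels and percentages of Mir21a above pool both codes. Its median was higher in V than in LB libraries: 2123 against 2054 CPM in Q80, 2013 against 1958 in Q111, 2010 against 1890 in Q140 and 1915 against 1838 in Q175. The LB medians of Q20 and Q92 were 2187 and 2037. Among LB libraries, Q20 shared lane numbers with Q111, Q80 with Q175 and Q92 with Q140, each with at most 1 library of any other genotype.

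Within lanes 3 and 4, the 8 Q20 libraries held 1998 to 2239 CPM of Mir21a and the 4 Q111 libraries 1895 to 1998, so these groups just failed to overlap. Sex is not balanced in this contrast, the 4 Q111 libraries being all female and the Q20 libraries of both sexes. Within lanes 1 and 2, the 6 Q80 libraries held 1926 to 2202 (median 2054) and the 5 Q175 libraries 1740 to 1945 (median 1838), and 1 Q140 library held 1933. Within lanes 5 to 8, the 8 Q92 libraries held 1879 to 2260 (median 2037) and the 5 Q140 libraries, of which 1 is male, 1818 to 2017 (median 1871).

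In each of the 3 lane sets the group with the longer repeat had the lower median. With LB libraries alone the coefficient for CAG length was -0.15 (adjusted p = 0.00015), and with the lane number as a further covariate, an alternative chosen after seeing the data, it was -0.18 (SE 0.04, adjusted p = 0.0210, n = 37). Mir21a was the 1 microRNA called in that fit.

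At 2 months no decrease was measured. Mir21a held 1512 to 1914 CPM (median 1630) in WT mice, 1506 to 1936 (median 1708) in Q20 mice, 1650 to 2248 (median 1737) in Q175 mice, and group means of 1726 to 1776 in the 4 genotypes between them. All groups overlapped. The coefficient for CAG length was 0.05 (SE 0.03, adjusted p = 0.895), with 0 of 5 members and 0% of all genes called. The members' lowest unadjusted p was 0.0725, and DESeq2 called 0. Each of the 5 genotypes against controls also gave 0 of 5 members and 0% of all genes, and the coefficients of Mir21a lay between 0.04 in Q92 and 0.08 in Q175. No member had an unadjusted p under 0.05 in these 5 comparisons, and DESeq2 called none.

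At 10 months Mir21a held 2149 to 2664 CPM (median 2454) in WT mice and 2263 to 2612 (median 2396) in Q20 mice. Q80 and Q92 mice had medians of 2458 and 2517 and Q140 mice 2397, with 1 Q140 mouse at 3143. Lower values occurred in Q111 mice, 1783 to 2591 with a median of 2212, and in Q175 mice, 2132 to 2505 with a median of 2245. The order of the means did not follow the repeat length, and of 6 neighbouring pairs in it the step from Q20 to Q175 alone exceeded the larger SD.

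The coefficient for CAG length at 10 months was -0.05 (SE 0.03, adjusted p = 0.385), with 0 of 5 members called (1 at an unadjusted p under 0.05, 0 by DESeq2) against 6.32% of all genes. In Q175 mice Mir21a fell by 0.11 (SE 0.04, adjusted p = 0.0395), 2 of 8 mice being below every control. There 1 of 5 members was called, 9.72% of all genes in either direction and 5.62% called lower. That call is marginal: it held in 6 of 16 alternatives (adjusted p from 0.0226 to 0.216) and was lost, for example, with Q20 mice alone as controls (-0.09) and without 1 WT mouse, replicate F2 (adjusted p = 0.133). In Q111 mice the coefficient was -0.15 (SE 0.05, edgeR adjusted p = 0.373), and 3 of 8 mice were below every control. In Q80, Q92 and Q140 mice it was 0.01, 0.02 and 0.03. In these 4 genotypes 0 of 5 members and 0% of all genes were called, DESeq2 called 0 members, and 1 member had an unadjusted p under 0.05 in Q92 and 1 in Q111.

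**Figure D2:**
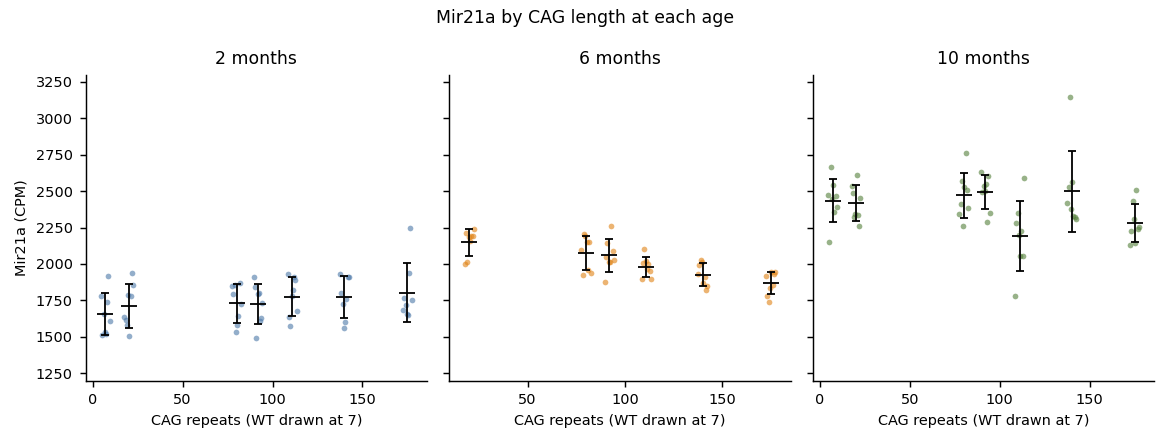
Mir21a level (CPM) in each mouse against CAG length at 2, 6 and 10 months, with the mean and SD of each genotype (n = 8; WT drawn at 7 repeats and not shown at 6 months). At 6 months the mean steps down from 2149 in Q20 to 1869 CPM in Q175 mice, at 2 months the groups overlap, and at 10 months Q111 and Q175 lie lowest.

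When the Z statistics of 6 and 10 months were combined, as the study did, Mir21a had Z = -4.95 (adjusted p = 3.57e-05) and was 1 of 5 members called, against 10.6% of all genes in either direction and 4.5% called lower. Of 489 genes 9 had a smaller p. The call was kept in 20 of 21 alternatives and lost without the Q175 mice (Z = -3.38, adjusted p = 0.0866). Whether the response to CAG length differed between 2 and 10 months was tested as an interaction, which gave -0.09 per 100 CAG for Mir21a (SE 0.04, edgeR adjusted p = 0.279). It called 0 of 5 members (1 at an unadjusted p under 0.05, 0 by DESeq2) and 0.904% of all genes. The 6-month libraries were not part of that test.

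Marker lists of other cell types are given beside the 6-month result. The neuronal list summed to 96399 to 107607 CPM (median 98278) in Q20 and 89203 to 98549 (median 93395) in Q175 libraries, and in Q175 2 of its 11 genes were called, both lower (Mir128-1 and Mir132), 2 of 11 had a coefficient above 0 and the median coefficient was -0.11. The vessel list (3 of 5 with a row: Mir126a, Mir143 and Mir145a, none at 0) summed to 33805 to 41498 CPM in Q20 and 30936 to 36399 in Q175 libraries at 6 months. The leukocyte list summed to 280 to 320 CPM in Q20 and 294 to 361 in Q175 libraries. In Q175 0 of 3 vessel genes were called and 1 of 3 had a coefficient above 0, and of the leukocyte genes 0 of 3 and 2 of 3. The neuronal and vessel sums were therefore lower and the leukocyte sum higher in median in Q175, without a call in the vessel and leukocyte lists. The part of these lists in the level of Mir21a was not tested.

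Mir146 and Mir146b, the NF-kB-induced brakes on Irak1 and Traf6, did not pass the test for CAG length or for any genotype at any age. At 6 months Mir146 ran from 713 to 1076 CPM (median 829) in Q20 and from 655.99 to 1071 (median 820) in Q175 mice. Mir146b ran from 1826 to 2856 (median 2062) in Q20 and from 1524 to 2677 (median 2005) in Q175 mice. The groups overlapped almost wholly, and the spread within a genotype was wide. The largest values came from 1 Q111 mouse, replicate F2, with 1394 CPM of Mir146 and 3816 of Mir146b.

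Much of that spread followed the replicate number, a pattern seen after the values were examined. At 6 months without WT, replicate 2 had the highest level of its sex in 6 of 6 genotypes, in females and in males, for Mir146 and for Mir146b. Over the 6 genotypes Mir146b ran from 2531 to 3816 CPM in replicate F2 and from 2256 to 3003 in M2, but from 1521 to 2125 in F3 and from 1481 to 1826 in M3. Mir146 ran from 999.7 to 1394 CPM in F2 and from 907 to 1189 in M2, but from 609 to 849 in F3 and from 655.99 to 713 in M3. For Mir21a replicate 2 was the highest in 3 of 6 genotypes in females and 1 of 6 in males, and for Mir150 in 0 and 0. The labels do not say what same-numbered mice share.

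The coefficients for CAG length of Mir146 were 0.04, 0.02 and 0.02 at 2, 6 and 10 months (SE 0.06, 0.08 and 0.05), and those of Mir146b were 0.02, 0.02 and 0.00 (SE 0.08, 0.09 and 0.06). The lowest adjusted p of these 6 values was 0.857. For the sum of both rows, which the division of reads cannot move, the coefficient was 0.02, 0.02 and 0.01 (SE 0.07, 0.09 and 0.05). In single genotypes the largest difference of Mir146b was -0.21 in Q80 at 10 months (SE 0.14, adjusted p = 0.999). Only with the 6-month WT libraries included was either called with CAG length at 6 months.

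The larger differences of this pair lay between ages and library sets. Group means of Mir146 were 216 to 246 CPM at 2 months, 840 to 868 at 6 months without WT, 455 ± 37.1 in the 6-month WT libraries (SD, n = 8) and 185 to 204 at 10 months. Those of Mir146b were 467 to 520, 2074 to 2253, 884 ± 68.4 and 363 to 439. Medians at 6 months without WT were thus 3.52 and 4.50 times those at 2 months, and at 10 months 0.807 and 0.815 times. Age cannot be told apart from library set here, since the 6-month libraries without WT are numbered in another form than those of 2 and 10 months. The 6-month WT libraries, which carry the number form of 2 and 10 months and all ran on lane 3, lay between the sets. The share of Mir146 in the pair's sum was also lower at 6 months without WT, with a median of 28.2% against 32.3% at 2 months, 32.6% at 10 months and 33.8% in the 6-month WT libraries.

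Mir150, listed here for its abundance in lymphocytes, was not called with CAG length at any age. Its cell source in cortex was not tested. Its median over all libraries was 1604 CPM, against 365 for Mir142b, 10.4 for Mir223 and 5.79 for Mir155. At 6 months it ran from 613 to 686 CPM in Q20 mice (median 640, mean 647 ± 26.9) and from 649 to 849 in Q175 mice (median 728, mean 727 ± 63.9), with means of 669 to 702 in the genotypes between. Of 8 Q175 mice, 5 were above every Q20 mouse. The coefficient for CAG length was 0.08 at 6 months (SE 0.04, edgeR adjusted p = 0.222), 0.05 at 10 months (SE 0.04, adjusted p = 0.530) and -0.15 at 2 months (SE 0.12, adjusted p = 0.895). In LB libraries with lane as a covariate it was -0.02 at 6 months (SE 0.06, adjusted p = 0.942), so the 6-month value did not hold its sign there. The combined Z of 6 and 10 months was 2.46 (adjusted p = 0.102), past the threshold in 3 of 21 alternatives. In Q175 mice at 6 months the difference was 0.16 (SE 0.06, adjusted p = 0.171).

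At 2 months Mir150 divided the libraries by index run, a stretch of consecutive leading numbers and LB numbers in the library names, rather than by genotype. The 9 libraries of the third run, which hold mice of all 7 genotypes, had 3136 to 3851 CPM, and the 47 others 1191 to 3748 with a median of 1586. A single library outside that run, Q20 replicate F2 at 3748, reached its range. The ratio of the medians was 2.05 for Mir150, 1.61 for Mir146b, 1.38 for Mir146, 1.01 for Mir21a and 0.926 for Mir511. Mir146b and Mir146 overlapped between the runs: 16 and 19 of the 47 other libraries were above the third run's lowest value. The leukocyte list was also higher in that run, 397 to 477 CPM against 280 to 419, and Mir122 had a median of 6.03 against 0.910 CPM. The erythrocyte list was lower, with a median of 2799 against 3349 CPM. The neuronal list had a median of 114032 against 105243, the vessel list 23334 against 21807 and the oligodendrocyte list 3323 against 3354. Their part in the level of Mir150 was not tested.

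Mir21a also varied with the run at 2 months, in another order. Its medians were 1655 CPM in the first run, 1854 in the second and 1755 in the third, and the second run holds 6 of 8 Q175 mice and none of the WT, Q80 and Q92 mice. With index run as a covariate the difference of Q175 from controls at 2 months was -0.048 (SE 0.07, adjusted p = 0.867) in place of 0.08, so genotype and run cannot be told apart in this value.

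Without that run, Mir150 at 2 months had group means between 1456 ± 113 in Q111 (SD, n = 7) and 1726 ± 199 in Q92 (SD, n = 7), Q20 with its replicate F2 being at 1725 ± 905. The coefficient for CAG length was then -0.08 (SE 0.07, adjusted p = 0.981). At 10 months the 3 index runs had medians of 2085 to 2157 CPM of Mir150, and the groups ran from a mean of 1944 ± 366 in Q20 to 2242 ± 206 in Q92.

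**Figure D3:**
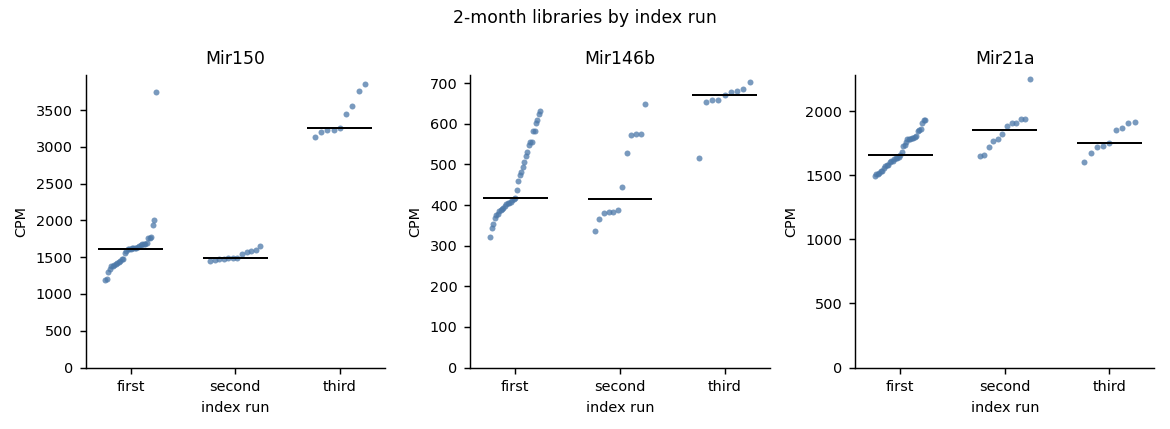
Mir150, Mir146b and Mir21a (CPM) in the 56 libraries of 2 months by index run, with a bar at each median (35, 12 and 9 libraries). The third run holds the high values of Mir150 (3136 to 3851 CPM) but for 1 library. Its values of Mir146b (515 to 702 CPM) overlap those of the other runs (321 to 649), and Mir21a has its highest median (1854 CPM) in the second run.

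Mir511, the member hosted by the macrophage gene Mrc1, had group means of 0.659 to 1.40 CPM with SDs of 0.259 to 0.746. The lowest mean was in Q175 mice at 6 months (0.238 to 1.11 CPM, median 0.535) and the highest in Q92 mice at 10 months (0.872 to 1.88, median 1.43). The groups overlapped at every age, and no neighbours in the order of the 21 means differed by more than the larger SD. The coefficient for CAG length was 0.09 at 2 months, -0.57 at 6 months (SE 0.24, adjusted p = 0.208) and 0.34 at 10 months (SE 0.16, adjusted p = 0.247). It was called at 6 months in 1 of 15 alternatives, with the 6-month WT libraries included (-0.52, adjusted p = 0.0314). A change in Mir511 smaller than these errors was not detectable at this depth.

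**Figure D4:**
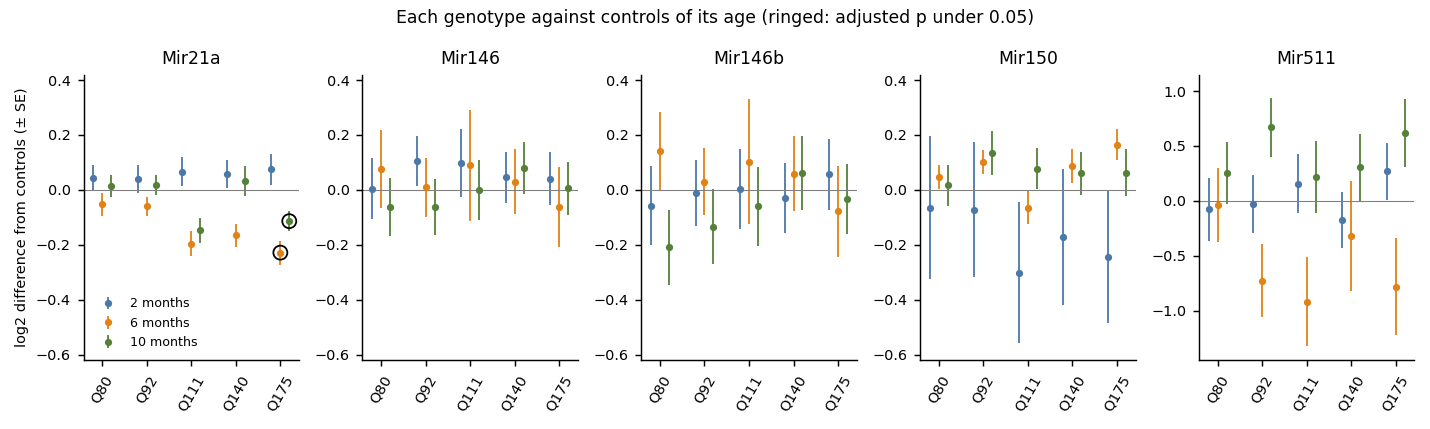
Difference on the log2 scale (± SE) of Q80, Q92, Q111, Q140 and Q175 mice from controls of the same age for each member (8 mutant mice against 16 controls, or 8 at 6 months), ringed where the adjusted p was under 0.05. With library code as a covariate, the 6-month values rest on the LB libraries, in Q111 on 4 female mice. The 2 rings are on Mir21a, in Q175 mice at 6 months (-0.23) and at 10 months (-0.11), and the wide bars of Mir511 reflect its median count of 5.

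Sex was tested with genotype as a covariate. Of 5 members 0 were called at 2, 6 and 10 months, against 0.381%, 0.6% and 0.395% of all genes, and DESeq2 called 0. An unadjusted p under 0.05 occurred for 1, 0 and 1 members. These were Mir146 at 2 months, 0.15 higher in males (SE 0.07, adjusted p = 0.717), and Mir21a at 10 months, 0.07 lower in males (a coefficient of -0.07, SE 0.03, adjusted p = 0.671).

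Between 10 and 2 months, with all genotypes in 1 fit, 3 of 5 members were called, against 53.5% of all genes, 21.7% called higher and 31.8% called lower. Mir21a rose by 0.41 (SE 0.02, adjusted p = 4.34e-35), with a median of 2386 CPM (1783 to 3143, n = 56) at 10 months and 1747 (1493 to 2248, n = 56) at 2 months. The call held in all 16 alternatives, with values of 0.36 to 0.50. Mir146 fell by 0.34 (SE 0.04, adjusted p = 4.98e-11) and Mir146b fell by 0.34 (SE 0.05, adjusted p = 5.10e-08). The sum of the pair fell by 0.33 (adjusted p = 1.46e-08). In control libraries alone the value of Mir146b was -0.27 (adjusted p = 0.0807).

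Mir150 differed by 0.10 (SE 0.07, adjusted p = 0.225) and was called in 3 of 16 alternatives. Without the 9 libraries of the third index run the difference was 0.37 (SE 0.04, adjusted p = 4.65e-13), and in control libraries alone it was -0.049. Mir511 differed by -0.10 (SE 0.12, adjusted p = 0.577). The leading numbers in the library names form a separate range at each age, and age cannot be told apart from whatever these ranges mark, which the labels do not say. Beside these values, the oligodendrocyte list (3 of 4 with a row: Mir219a-1, Mir219a-2 and Mir338, none at 0) had group medians of 3188 to 3552 CPM at 2 months and 4403 to 5015 at 10 months, and the vessel list 21234 to 24121 and 17988 to 20047. Their part was not tested.

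The 6-month WT libraries differed from the Q20 libraries of that age in 51.8% of all genes (28.2% called higher, 23.6% called lower) and in 3 of 5 members, whereas WT and Q20 differed in 0% of genes and 0 of 5 members at 2 and at 10 months (0 members at an unadjusted p under 0.05 and 0 by DESeq2). Mir21a ran from 1873 to 4177 CPM in the WT libraries (median 3517) and was 0.66 higher (SE 0.12, adjusted p = 1.21e-04). Mir146 ran from 394 to 491 CPM and fell by 0.96 (SE 0.09, adjusted p = 1.68e-07). Mir146b ran from 778.3 to 1008 CPM and fell by 1.34 (SE 0.09, adjusted p = 4.24e-09). The Q20 libraries held 713 to 1076 CPM of Mir146 and 1826 to 2856 of Mir146b, above every WT library. The share of all genes so separated between these sets was not counted. With library size alone in place of TMM scaling, 40.7% of all calls were higher in place of 54.3%, the median coefficient over all genes was -0.15 in place of 0.00, and Mir21a, Mir146 and Mir146b differed by 0.48, -1.12 and -1.51.

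Mir150 differed by 0.25 (SE 0.11, adjusted p = 0.0722) and Mir511 by 0.04 (SE 0.33). The values describe 2 sets of libraries: genotype and library set cannot be told apart at this age. The leukocyte list in the WT libraries summed to 417 to 767 CPM (median 713) against 280 to 320 in Q20, the erythrocyte list (Mir451a, Mir144 and Mir486) to a median of 6891 against 3674, and the neuronal list to 119032 against 98278. The erythrocyte sum is mostly Mir486, with a median over all libraries of 2980 CPM against 261 for Mir451a and 43.6 for Mir144. The oligodendrocyte list was lower, with a median of 2286 against 3274 CPM and 2 of 3 genes called lower. Of the 11 neuronal genes 6 were called, 2 higher (Mir9-2 and Mir9-3) and 4 lower (Mir124a-1, Mir124a-2, Mir138-1 and Mir138-2). The part of these lists in the members' differences was not tested.

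Of these 8 libraries, WT replicate F3 stood apart. It held 1873 CPM of Mir21a where the other 7 held 3426 to 4177, and 1312 of Mir150 where they held 655 to 800. Its leukocyte sum was 417 against 644.2 to 767, its erythrocyte sum 2968 against 6047 to 9022 and its oligodendrocyte sum 4327 against 2173 to 2330. Without it Mir21a was 0.73 higher in WT than in Q20 (SE 0.05, adjusted p = 6.26e-11) and Mir150 0.08 (SE 0.05, adjusted p = 0.135).

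**Figure D5:**
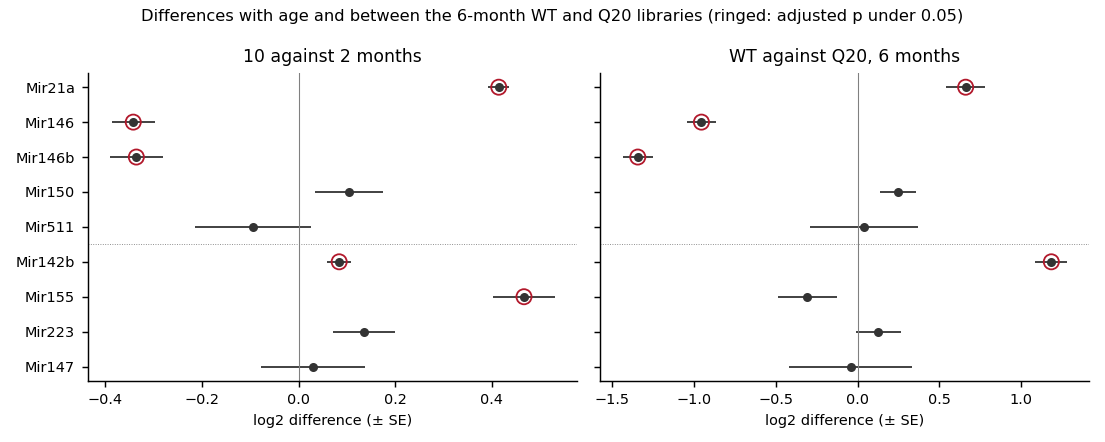
Difference on the log2 scale (± SE) between 10 and 2 months and between the 6-month WT and Q20 libraries for the 5 members and, below the dotted line, 4 other microRNA genes of immune cells, ringed where the adjusted p was under 0.05. Mir21a is higher at 10 months (0.41) and in the WT libraries (0.66), Mir146 and Mir146b are lower in both, and Mir142b differs most upward in the WT libraries (1.18).

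The patterns of the members across mice were compared with those of 326 other well-counted microRNA genes, by Spearman's rho of log2 levels over 160 libraries after the mean of each genotype, age and sex was subtracted. These libraries share runs and depth, so rho is a description. Mir146 and Mir146b were each other's closest match (0.91), followed by Mir384 (0.73 and 0.78) and Mir30d (0.59 and 0.59). What part of the first value comes from divided reads was not tested. Mir21a was most like Mir340 (0.56), Mir592 (0.53) and Mir101a (0.50), and had rho of -0.06, 0.02 and 0.02 with Mir146, Mir146b and Mir150. Mir150 was most like Mir30b (0.61), Mir128-1 (0.53) and Mir149 (0.51), and without the third index run of 2 months most like Mir30b (0.44), Mir125a (0.40) and Mir149 (0.40). Mir511 was too low to be compared.

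A list of 39 other microRNA genes tied to immune cells or NF-kB signalling was read beside the members, and 35 had a row. It was chosen with earlier results of these data known, so its share called, set beside that of all genes, is no test of the list. Its Mir124a, Mir9, Mir132 and Mir212 genes are also in the neuronal list, and Mir142b, Mir155 and Mir223 in the leukocyte list. Several have copies with the same mature strand (Mir181a, Mir181b, Mir124a, Mir9, Mir29b and Mir125b genes), among which reads can be divided. At 2 months 0 of 35 were called with CAG length by edgeR, 0 had an unadjusted p under 0.05, and DESeq2 called 0 of all 525 genes.

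At 6 months 3 of 35 rose and 0 fell with CAG length, beside 2.6% of all genes called: Mir181a-1 by 0.14 (SE 0.03, adjusted p = 0.0075) and Mir181b-2 by 0.12 (adjusted p = 0.0267), of a family that tunes lymphocyte receptor signalling and is abundant in neurons, and Mir20a of the Mir17 cluster by 0.17 (adjusted p = 0.0307). The median coefficient of the list was 0.02, beside 0.01 over all 500 genes.

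At 10 months 3 of 35 rose and 4 fell, beside 6.32% of all genes called. Mir181a-1 rose by 0.12, Mir181a-2 by 0.14 and Mir17 by 0.12. Mir212 fell by 0.21 and Mir132 by 0.18 (adjusted p = 5.13e-06 and 5.03e-05), a pair from 1 transcript that responds to CREB in neurons, and Mir221 and Mir222, which repress Cdkn1b and Kit, fell by 0.19 and 0.13. In Q175 mice at 10 months the same 7 were called with Mir34a and Mir124a-3, which fell by 0.30 and 0.45 (9 of 35, beside 9.72% of all genes), and at 6 months Mir181a-1 rose by 0.26 and Mir132 fell by 0.26 (2 of 35, beside 1.1%). The median of the list was -0.01 at 10 months, beside -0.01 over all genes.

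The microRNAs of blood-borne immune cells in that list were not called with CAG length at any age. Mir142b, which overlaps the pan-leukocyte gene Mir142 on the opposite strand, had group medians of 280 to 311 CPM at 6 months without WT and 342 to 425 at the other ages, and its coefficients were 0.00, 0.05 and 0.04 at 2, 6 and 10 months. Mir155, induced with Mir146 in activated macrophages, had group medians of 4.11 to 8.26 CPM without the 6-month WT libraries and coefficients of 0.05, 0.19 (SE 0.11) and 0.11 (SE 0.08). Mir223 of granulocytes and monocytes had group medians of 8.87 to 13.5 CPM and coefficients of 0.07, -0.07 and 0.03, and Mir147, low at 0.933 to 1.72 CPM, had coefficients of -0.14, 0.19 and -0.05.

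Between 10 and 2 months 17 of the 35 rose and 11 fell, beside 53.5% of all genes, with a median coefficient of 0.08 against -0.05 over all genes. Mir155 rose by 0.47 (SE 0.06, adjusted p = 1.53e-10) and Mir142b by 0.08 (SE 0.02, adjusted p = 0.0018), while Mir223 and Mir147 differed by 0.13 (adjusted p = 0.0709) and 0.03. Between the 6-month WT and Q20 libraries 12 rose and 9 fell, beside 51.8% of all genes, with Mir142b higher by 1.18 (SE 0.10, adjusted p = 3.65e-08) and Mir155, Mir223 and Mir147 not called (-0.31, 0.13 and -0.04).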

How the data were processed

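Small RNA of cortex was sequenced by the authors (strand-specific single-end 36-mers, CASAVA 1.8.2 per the labels' processing notes), clipped reads were aligned to mm10 with STAR, and estimated counts per Ensembl transcript were deposited without normalization. Counts named HTSeq in the methods are fractional here. A deposited table of FPKM values was not used. The members and lists were chosen with earlier results of these data known.

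Counts were rounded and tested with edgeR 4.0.16 in R 4.3.3 (TMM, robust quasi-likelihood F test, two-sided) on microRNA genes with at least 10 summed counts, with sex as a covariate, joined at 6 months by library code. P-values were adjusted over all genes tested and held against an FDR of 0.05. SEs came from the coefficient and its F statistic, and CPM are TMM-normalized. Q was coded 7 for WT, and 6-month WT were left out except in 1 alternative. The combined Z is the sum of both Z divided by the square root of their number. Depth limits precision for low counts. p-values measure the spread between mice. Named by rule were the members, listed genes that were called, Mir142b, Mir155, Mir223 and Mir147, and the 3 most alike genes (mean of at least 10 counts). Alternatives (18 set beforehand, 9 added after seeing the data) included DESeq2 1.42.0. Code was tested on simulated data.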

Additional observations from a re-analysis of the deposited data

Results flagged for a closer look

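In 14 of the 105 group levels examined (5 members in 21 groups of 8), 1 library lay so far from the rest that Dixon's ratio of its gap to the group's range passed the critical value for 8 samples. Chance sets apart about 1 group in 20.

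Mir21a was 1873 CPM in WT replicate F3 at 6 months (the other 7 mice 3426 to 4177) and 3143 in Q140 replicate F2 at 10 months (the others 2310 to 2561). Mir146 was 1394 CPM in Q111 replicate F2 at 6 months (others 662 to 950), 323 in WT replicate F2 at 10 months (others 160 to 203) and 248 in Q80 replicate M4 at 10 months (others 154 to 191). Mir146b was 3816 CPM in the same Q111 mouse (others 1468 to 2407), 812 in the same WT mouse of 10 months (others 336 to 421) and 590 in Q140 replicate F2 at 10 months (others 369 to 473). The Q111 mouse and the WT mouse of 10 months are thus set apart in both members of the pair that shares reads.

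Mir150 was 3450 CPM in Q92 replicate M4, 3204 in Q111 replicate F4, 3557 in Q140 replicate M4 and 3233 in Q175 replicate F4, all at 2 months, where the remaining 7 mice of these groups held 1475 to 2011, 1303 to 1618, 1447 to 1698 and 1475 to 1653. It was 1312 in WT replicate F3 at 6 months (others 655 to 800). The 4 high libraries of 2 months belong to the third index run. Mir511 was 0.417 CPM in Q140 replicate M2 at 2 months (others 0.910 to 1.32).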

How the results depend on the processing

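Of the counts of members called, 398 values under alternatives stayed within 1.5 times the reported count and 24 did not. With the 6-month WT libraries included, 4 members were called with CAG length at 6 months, 2 in the combined test and 0 in Q175 at 6 months. In Q175 at 6 months the count was 0 with library size alone and 2 after outlier replacement with DESeq2. In Q111 and Q140 at 6 months it was 1 under DESeq2 with and without outlier replacement, and in Q140 also 1 in a fit of all genotypes of the age. In Q175 at 10 months it was 0 with RLE scaling, microRNA genes with at least 1 count, all rows, the microRNAs of the study's own list, the labels' sex, the replicate block, Q20 alone as controls, all genotypes in 1 fit, the pair Mir146 and Mir146b summed, or without WT replicate F2. In the combined test it was 2 with the replicate block, without the library code or without WT_10m replicate F2, Mir150 being added (Z = 2.80, 2.81 and 2.82), and 0 without Q175. The cause was not tested.

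Single values changed sign 8 times with a call on either side or by more than the SE. Smaller sign changes without a call were counted as unchanged. Mir150 with CAG length at 6 months was -0.031 with the 6-month WT libraries and -0.018 with lane among LB libraries. Mir146 and Mir146b in Q175 at 6 months were 0.35 and 0.46 with the 6-month WT libraries. Mir21a in Q175 at 2 months was -0.048 with index run as a covariate, Mir511 with CAG length at 2 months was -0.054 without Q175 and its combined Z was 0.998 with lane among LB libraries, and Mir150 between ages was -0.049 in control libraries alone. Of the other single values, rho values of the closest match included, 659 counted as unchanged, 14 lost and 12 gained a call, and 3 moved. The values that moved were rho: without means subtracted it was 0.84 in place of 0.56 for Mir21a and 0.87 in place of 0.61 for Mir150. Without the third index run it was 0.44 for Mir150.

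Counts of all genes called moved by over 1.5 times for CAG length at 6 months (13; 1 with lane among LB libraries, 2 without Q175, 199 with the 6-month WT), at 10 months (32; 1 without Q175), combined (52; 2 without Q175, 136 with the 6-month WT), in Q175 at 6 months (5; 0 to 31) in the interaction (5; 2 without Q175), in Q92 at 6 months (1; 0 to 3) and between sexes at 6 and 10 months (3; 0 to 9 and 2; 1 to 3). Counts of 0 rose under an alternative to at most 10 in Q92, 5 in Q80, 2 with CAG length and 1 in Q140 at 2 months, to 9 in Q140 and 1 each in Q80 and Q111 at 6 months, and to 4 in Q140 and 2 in Q111 at 10 months. Scaling by library size moved the share called higher from 54.3% to 40.7% between WT and Q20 at 6 months and from 57.7% to 45.8% in the combined test.

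Over all microRNA genes the replicate numbers did not pair the mice: deviations of same-numbered mice correlated at a mean of -0.01, -0.03 and -0.01 at 2, 6 and 10 months, and 4 of 56, 5 of 48 and 7 of 56 libraries were closest to their own number. Mir146 and Mir146b at 6 months followed the number nonetheless, and with the replicate block their coefficients for CAG length there were 0.017 (SE 0.03) and 0.0026 (SE 0.04), with adjusted p of 0.898 and 0.983, the block lowering the SE from 0.08 and 0.09. With the replicate block Mir21a had -0.15 for CAG length at 6 months (adjusted p = 1.93e-05), Z = -4.99 combined, -0.25 in Q175 at 6 months (adjusted p = 0.0207) and -0.12 in Q175 at 10 months (adjusted p = 0.0895). Lane was not added to the age comparison or the interaction. Depth limits Mir511 alone among the members.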
